A study of Homo sapiens with 12 samples.

Results

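A set of 10 genes of the endoplasmic reticulum (ER) folding and stress machinery was followed in 2 human acute myeloid leukaemia cell lines with and without depletion of CHD4. They are HSPA5, HSP90B1, XBP1, DNAJB9, HERPUD1, EDEM1, PDIA4, PDIA6, CALR and CANX. Members were all probe sets that the platform annotation gives to 1 of these genes alone, which came to 20 probe sets of 10 genes among the 22215 probe sets tested. Another 2 probe sets, annotated to HSP90B1 together with MIR3652, were not used.

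RNA of U937, a monocytic line, and of MV4-11, a myelomonocytic line with an MLL fusion gene and activated FLT3, was hybridised to 12 Affymetrix arrays. The 4 groups of 3 arrays were U937 with an shRNA against CHD4, U937 with a scrambled shRNA, MV4-11 with an shRNA against CHD4, and MV4-11 with a scrambled shRNA. Cells of all groups grew in RPMI with fetal bovine serum and antibiotics and carried a GFP-expressing lentiviral pRRL.H1 vector, so both shRNA and scrambled cells had been transduced. Whether the cells were clones or pools, and how many different hairpins against CHD4 were used, was not stated in the labels. The shRNA target is written CDH4 in the sample labels and CHD4 in the series design text. CHD4 is the motor subunit of NuRD, a complex that slides nucleosomes and removes histone acetyl groups.

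Values are log2 RMA values, and a change is the mean of the CHD4 shRNA arrays minus the mean of the scrambled arrays on the log2 scale. The 3 CHD4 probe sets were 3.36-fold to 4.58-fold lower with CHD4 shRNA than with scrambled shRNA in U937 and 3.39-fold to 3.99-fold lower in MV4-11, with no overlap between arrays. CDH4 had 0 named probe sets and was not analysed here. Of the 7 myeloid markers measured, the monocyte gene LYZ was bright (mean 13.58), whereas CD14, MPO and SPI1 lay below the array medians of 6.97 to 7.02. The summed myeloid marker level (log2 of the summed linear signal) was 13.73 to 14.24 in MV4-11 CHD4 shRNA arrays, against 13.37 to 13.49 in MV4-11 scrambled arrays. In U937 it was 13.98 to 14.06 with CHD4 shRNA, against 13.42 to 14.16 with scrambled shRNA. LYZ weighs most in this sum, since the next brightest marker, FCER1G, had a mean of 10.71. The LYZ change in MV4-11 was 0.36, with a limma adjusted p of 0.261. The B and plasma cell list, which is of interest because plasma cells are rich in ER, had 7 of 8 markers measured, with PAX5 the brightest (mean 7.74) and the plasma cell gene JCHAIN dim (mean 2.99). Its summed level was 8.84 to 9.11 in U937 CHD4 shRNA arrays, against 9.14 to 9.22 in U937 scrambled arrays, and 9.11 to 9.33 in MV4-11 CHD4 shRNA arrays, against 8.94 to 9.07 in MV4-11 scrambled arrays. These sums thus lay apart in both lines, lower in U937 and higher in MV4-11 with CHD4 shRNA. The plasma cell genes SDC1, TNFRSF17 and JCHAIN changed by 0.02, 0.04 and 0.01 in U937 and by -0.05, 0.03 and -0.02 in MV4-11. None of them had a limma adjusted p under 0.05. By the limma test 5.53% of all 11963 genes passed in U937 and 8.75% in MV4-11. Of 7 myeloid markers 1 passed in U937 and 2 in MV4-11, all higher. They were FCER1G in both lines (1.25 and 1.41) and ITGAM in MV4-11 (1.41). Of the 7 B and plasma cell markers, CD79B rose in both lines (0.60 in U937 and 1.34 in MV4-11) and PAX5 fell in U937 (-0.90). Of 7 T and NK cell markers 1, CD2, passed as higher in each line, and of 4 erythroid and 8 fibroblast and epithelial markers 0 passed in either line (1 erythroid marker in U937 had an unadjusted p under 0.05). The part of these markers in the results for ER genes was not tested.

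Proteins that enter the secretory pathway fold in the ER lumen with the help of chaperones, disulfide isomerases and the lectin cycle of calnexin and calreticulin. When unfolded proteins build up, the membrane sensors IRE1, PERK and ATF6 start the unfolded protein response (UPR), which raises chaperones and the machinery of ER-associated degradation and lowers protein synthesis. HSPA5, also called BiP or GRP78, is both the main lumenal Hsp70 chaperone and a restraint on the sensors. Many ER chaperone genes carry the ER stress element (ERSE) in their promoters, a site read by ATF6 and XBP1 together with the general factor NF-Y. Myeloid cells make large amounts of granule enzymes and surface receptors, which pass through this machinery.

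The promoter sites are shown first, because the members differ in which of them they carry. RefSeq promoter windows (GRCh38.p14, 250 bases before to 50 after a transcript start) were searched on both strands for ERSE, spelled CCAAT, then 9 bases of any kind, then CCACG, for ERSE-II, spelled ATTGG, then 1 base of any kind, then CCACG, and for the XBP1-type element UPRE, spelled TGACGTGG. All 3 motifs contain CCACG or its reverse complement, and no printed match belonged to more than 1 motif. ERSE was found in 6 of the 10 genes and ERSE-II in 1, while UPRE was found in 0 and DNAJB9, EDEM1 and PDIA4 had none of the 3. In all 35116 windows, ERSE occurred in 0.0769%, ERSE-II in 0.0541% and UPRE in 0.729%. A match describes the letters only. Each stretch below is written 5′ to 3′ in the direction of its gene, with the motif in capitals and 20 bases on either side.
HSPA5: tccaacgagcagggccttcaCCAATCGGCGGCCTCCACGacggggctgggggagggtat
HSP90B1 distal: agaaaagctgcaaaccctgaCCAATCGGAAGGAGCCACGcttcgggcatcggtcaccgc
HSP90B1 proximal: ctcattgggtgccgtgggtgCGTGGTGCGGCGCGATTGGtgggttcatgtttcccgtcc
XBP1: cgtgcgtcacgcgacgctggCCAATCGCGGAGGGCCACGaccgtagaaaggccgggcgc
PDIA6: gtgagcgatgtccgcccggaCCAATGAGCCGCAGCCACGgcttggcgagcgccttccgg
CALR: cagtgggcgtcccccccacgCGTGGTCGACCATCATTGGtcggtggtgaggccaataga
CANX: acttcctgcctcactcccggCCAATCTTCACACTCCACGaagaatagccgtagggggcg
HERPUD1: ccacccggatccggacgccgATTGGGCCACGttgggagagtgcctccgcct

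The HSPA5 stretch is chr9:125241371-125241429 on the minus strand, with the motif 66 to 48 bases before the transcript start. HSP90B1 held 2 matches on the plus strand of chromosome 12, chr12:103930196-103930254 with the motif 194 to 176 bases before the start and chr12:103930301-103930359 with the motif in opposite orientation 89 to 71 bases before it. The XBP1 match, chr22:28800583-28800641 on the minus strand, lay 52 to 34 bases before the start. CALR held its match in opposite orientation 225 to 207 bases before the start, at chr19:12938364-12938422 on the plus strand. The PDIA6 stretch, chr2:10812833-10812891 on the minus strand, and the CANX stretch, chr5:179698758-179698816 on the plus strand, belong to annotated starts inside the span of their genes, with the motif 86 to 68 and 151 to 133 bases before those starts. HERPUD1, at chr16:56932005-56932055 on the plus strand, had the shorter ERSE-II 117 to 107 bases before its start.

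**Figure D1:**
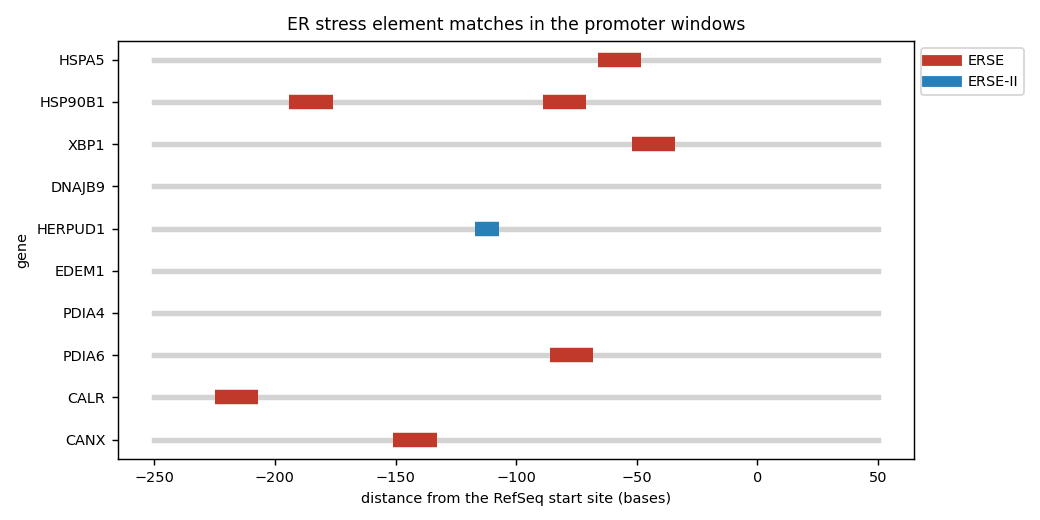
Positions of ERSE (red) and ERSE-II (blue) matches, in bases from the RefSeq start site, in the promoter windows of the 10 genes. Grey lines are the windows from 250 bases before to 50 bases after the start. HSP90B1 has 2 ERSE matches, and DNAJB9, EDEM1 and PDIA4 have no match.

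Few of the ER genes passed the test. With CHD4 shRNA, EDEM1 rose in both lines, HERPUD1 fell in MV4-11 and had a like value in U937, and DNAJB9 had mean changes of -0.80 and -0.64 by its brighter probe set, with calls that depended on the fit. The general chaperones HSPA5 and HSP90B1 and the transcription factor XBP1 did not pass the test in either line. In U937, 1 of 20 probe sets passed as higher (1.86% of all probe sets did) and 0 as lower (2.65% of all), by limma with an adjusted p under 0.05 as threshold. At an unadjusted p under 0.05 the U937 count was 11 of 20, against 3785 of 22215 overall (17%). In MV4-11, 1 of 20 passed as higher (3.88% of all) and 1 as lower (3.59% of all). The MV4-11 count at an unadjusted p under 0.05 was 4 of 20, against 4954 of 22215 overall (22.3%), so it did not exceed the share of all probe sets. With the MV4-11 replicate numbers as a block, 3 of 20 probe sets passed in each line (7.32% of all probe sets in U937 and 13.1% in MV4-11). They belonged to 3 genes. Of all genes, by their highest-mean probe set, 8.78% passed in U937 and 14.8% in MV4-11 in that fit. The block is fitted to MV4-11 arrays only. It acts on U937 through the shared spread alone, so U937 calls in that fit may rest on too small a p. The median change of the 20 probe sets was -0.22 in U937, where the median of all probe sets was -0.00, and -0.10 in MV4-11, where it was -0.03. Changes were negative for 18 of 20 probe sets in U937 and for 16 in MV4-11. Over all 11963 genes, by their highest-mean probe set, they were negative for 6028 in U937 and 6609 in MV4-11. Taken in the same way, by the highest-mean probe set, all member genes but EDEM1 and XBP1 had negative changes in each line. The 20 probe sets cover only 10 genes, and probe sets of the same gene are not independent. Arrays of the CHD4 shRNA and scrambled groups did not overlap for 14 of 20 probe sets in U937 (24.2% of all) and for 8 of 20 in MV4-11 (23.8% of all). In bulk RNA, fewer cells of a type and less RNA per cell cannot be told apart.

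**Figure D2:**
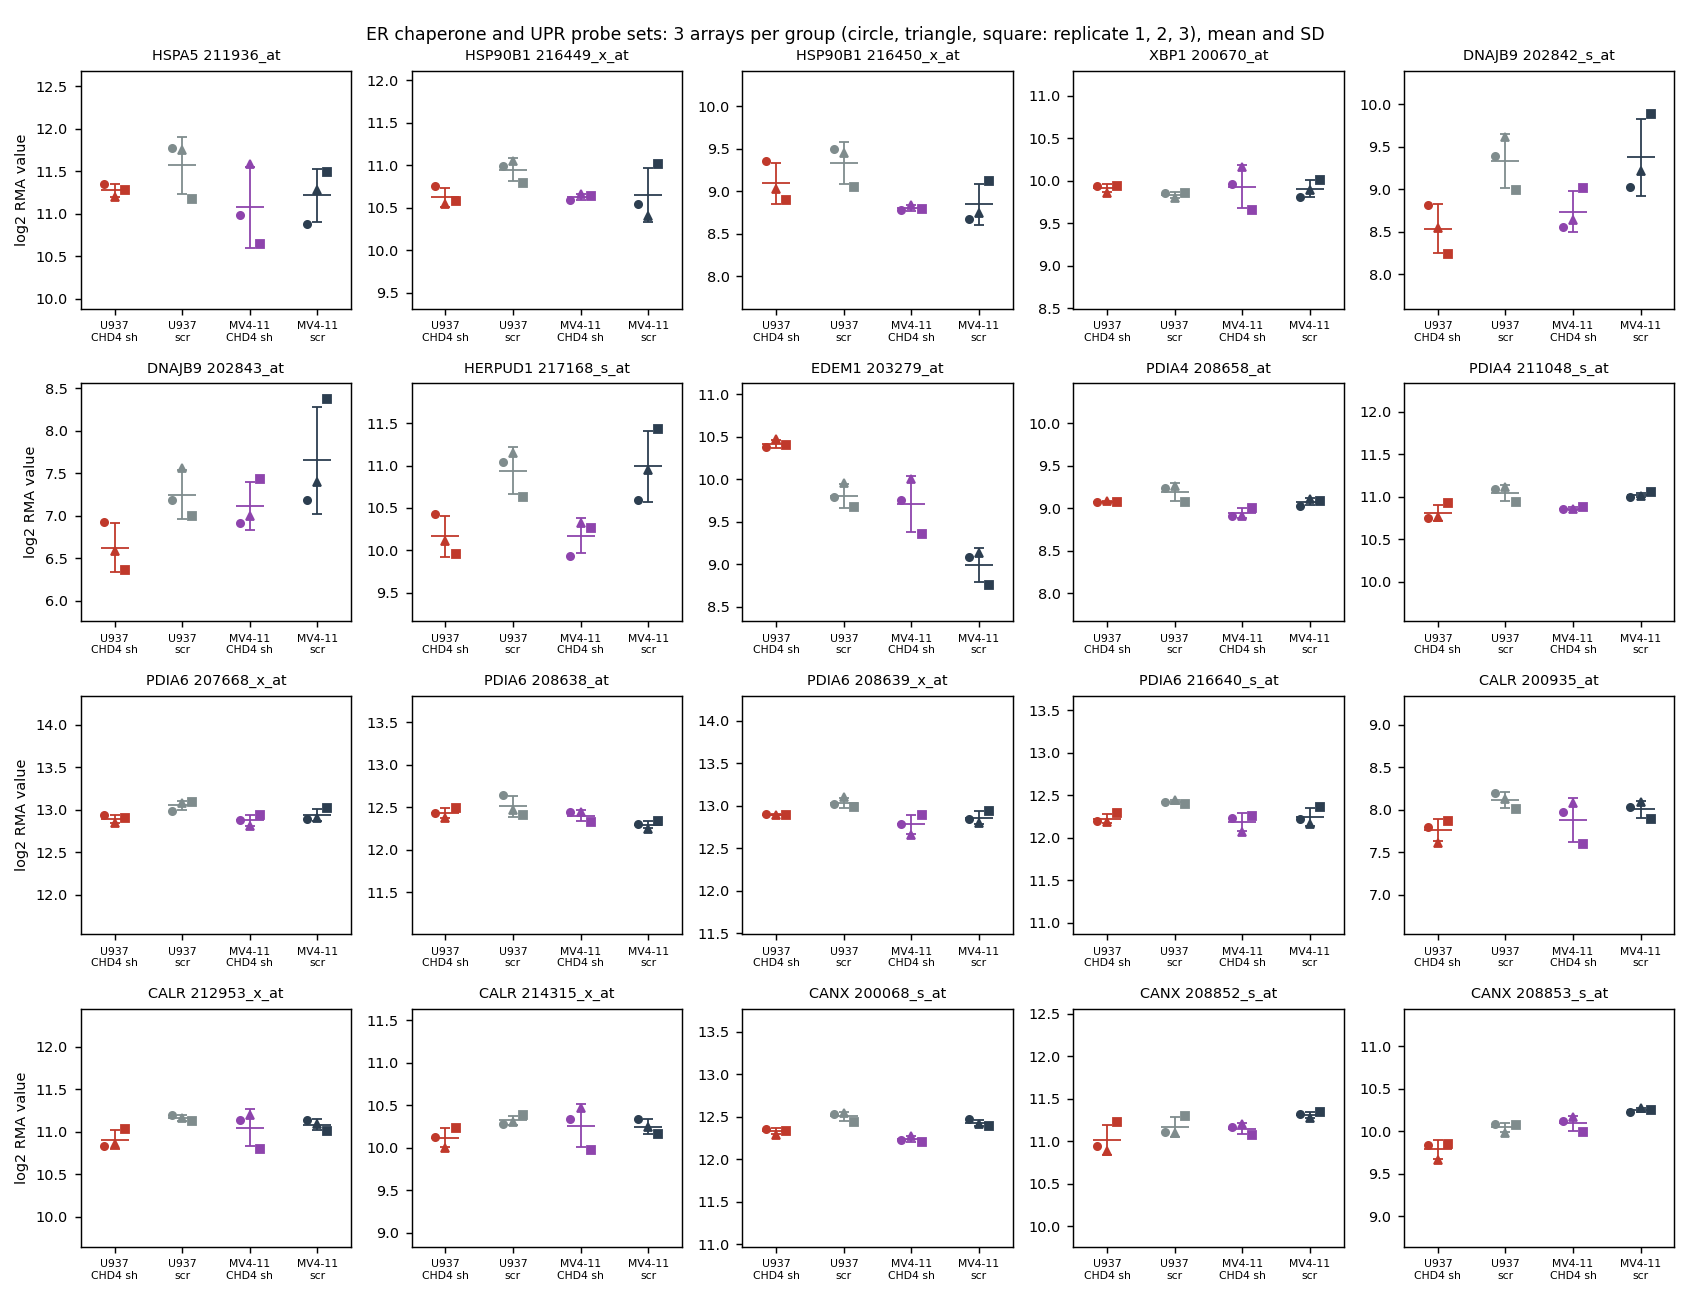
Log2 RMA values of the 20 probe sets on each of the 12 arrays. Colours are the groups, with U937 CHD4 shRNA, U937 scrambled, MV4-11 CHD4 shRNA and MV4-11 scrambled from left to right. Symbols are replicates 1 to 3, and bars are the mean and SD of 3 arrays. Every panel spans the same height. EDEM1 is higher and HERPUD1 lower in the CHD4 shRNA arrays of both lines, and the PDIA6 probe sets vary little.

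EDEM1 (probe set 203279_at, gene at chr3:5187707-5219958) encodes an ER lectin of the mannosidase family that hands misfolded glycoproteins to degradation, and it is a target of XBP1. In U937 it had 10.38, 10.47 and 10.40 with CHD4 shRNA, against 9.79, 9.95 and 9.67 with scrambled shRNA. All CHD4 shRNA arrays lay above all scrambled arrays, and the CHD4 shRNA arrays lay close together. In MV4-11 it had 9.76, 10.00 and 9.35 with CHD4 shRNA, against 9.08, 9.13 and 8.76 with scrambled shRNA. Again the groups did not overlap, although replicate 3 was the lowest of both. The change was 0.61 ± 0.15 (SE, n = 3 each) or 1.53-fold higher in U937, with a limma adjusted p of 0.0384, and 0.71 ± 0.15 (SE, n = 3 each) or 1.64-fold higher in MV4-11, with a limma adjusted p of 0.0142. EDEM1 was the 1 member gene that passed in the same direction in both lines. Without a replicate block these calls were close to the threshold. In U937 the call was lost without any 1 of the 6 U937 arrays and without MV4-11 CHD4 shRNA replicate 1, with limma adjusted p between 0.0573 and 0.137. In MV4-11 it was lost without CHD4 shRNA replicate 1 (0.0658), CHD4 shRNA replicate 2 (0.0501) or scrambled replicate 3 (0.0631). In a fit of the MV4-11 arrays alone, its adjusted p was 0.0800. With the MV4-11 replicate numbers as a block, its limma adjusted p in MV4-11 was 0.00127.

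HERPUD1 (217168_s_at, gene at chr16:56932142-56944864) is an ER membrane protein with a ubiquitin-like domain that helps assemble the HRD1 degradation complex, and it is among the genes most readily induced by ER stress. The MV4-11 arrays gave 9.94, 10.32 and 10.26 with CHD4 shRNA, against 10.59, 10.95 and 11.43 with scrambled shRNA. Every CHD4 shRNA array was below every scrambled array, and scrambled replicate 3 was the highest. U937 values were 10.43, 10.11 and 9.96 with CHD4 shRNA, against 11.04, 11.15 and 10.63 with scrambled shRNA. Here too the groups stood apart. HERPUD1 fell in MV4-11 by 0.82 ± 0.20 (SE, n = 3 each), to 0.568 of the scrambled level, with a limma adjusted p of 0.0300. The U937 change of -0.77 ± 0.20 (SE, n = 3 each) was nearly equal and missed the threshold, with a limma adjusted p of 0.0509. It passed without U937 CHD4 shRNA replicate 1 (0.0441), MV4-11 CHD4 shRNA replicate 2 (0.0470) or 3 (0.0486), or MV4-11 scrambled replicate 1 (0.0333) or 3 (0.0256). The MV4-11 call was lost without CHD4 shRNA replicate 1 (0.135), scrambled replicate 2 (0.0735) or scrambled replicate 3 (0.114). It was also lost in a fit of the MV4-11 arrays alone (0.0851) or a replicate block shared by both lines (0.0512). With the MV4-11 replicate numbers as a block, the limma adjusted p was 0.00814 in MV4-11 and 0.0165 in U937, where the change itself stayed the same. That U937 p comes from the spread shared with the blocked MV4-11 arrays and may be too small.

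DNAJB9 (gene at chr7:108569874-108574850), also called ERdj4, is a J-domain co-chaperone that brings HSPA5 to unfolded proteins and to IRE1. Probe set 202842_s_at had 8.82, 8.55 and 8.24 in U937 with CHD4 shRNA, against 9.39, 9.62 and 8.99 with scrambled shRNA. In MV4-11 it had 8.56, 8.64 and 9.01 with CHD4 shRNA, against 9.03, 9.21 and 9.89 with scrambled shRNA. Both lines had groups without overlap, though in MV4-11 the highest CHD4 shRNA array nearly met the lowest scrambled array. The changes were -0.80 ± 0.23 in U937 and -0.64 ± 0.23 in MV4-11 (SE, n = 3 each), with limma adjusted p of 0.0707 and 0.111. The U937 change passed without MV4-11 scrambled replicate 3 (0.0327) and in a fit of the U937 arrays alone (0.0422). With the MV4-11 replicate numbers as a block, both passed, with limma adjusted p of 0.0189 in U937 and 0.0327 in MV4-11. The U937 p of that fit rests on the spread shared with the blocked MV4-11 arrays and may be too small. The dimmer probe set 202843_at gave 6.93, 6.58 and 6.36 in U937 with CHD4 shRNA, against 7.18, 7.56 and 7.0 with scrambled shRNA. These U937 groups did not overlap. In MV4-11 it gave 6.91, 7.0 and 7.43 with CHD4 shRNA, against 7.18, 7.40 and 8.37 with scrambled shRNA, and the groups overlapped. Its changes were -0.62 ± 0.27 and -0.54 ± 0.27 (SE, n = 3 each) in U937 and MV4-11, with limma adjusted p of 0.248 and 0.265.

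**Figure D3:**
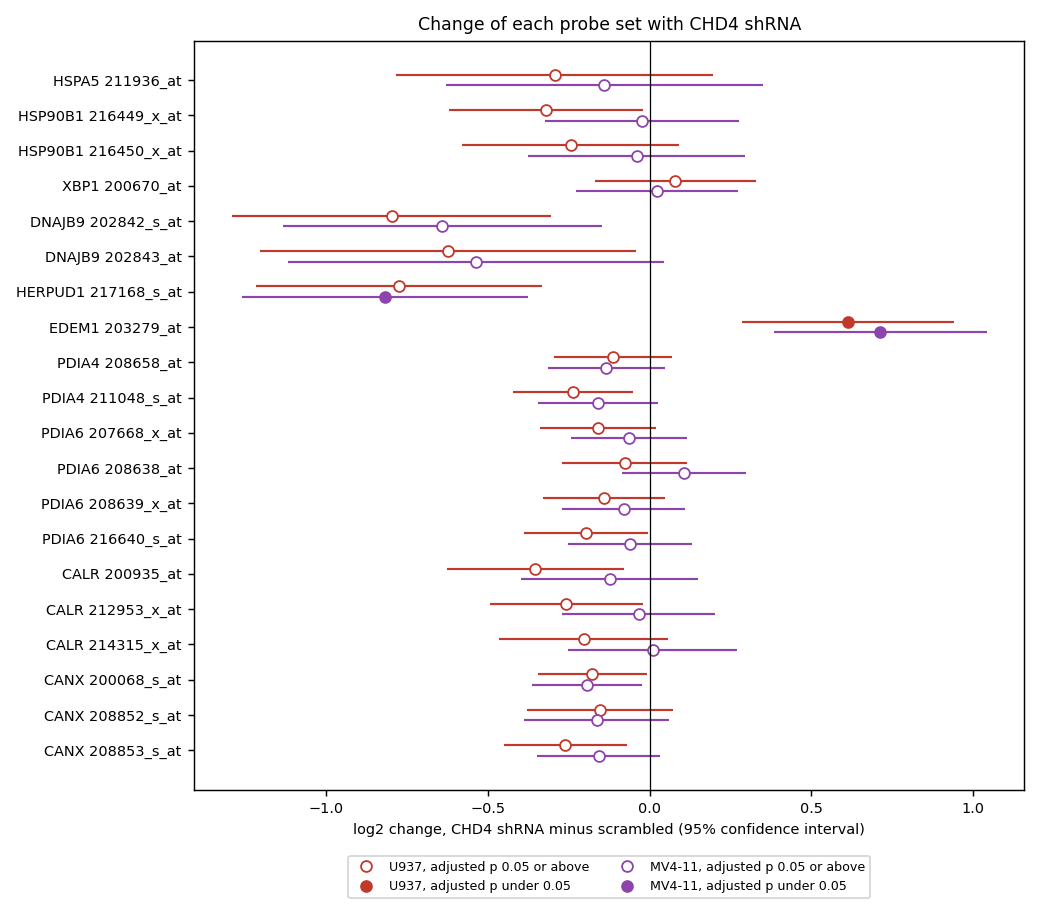
Log2 change, CHD4 shRNA minus scrambled, of each of the 20 probe sets, in U937 (red, upper) and MV4-11 (purple, lower). Bars are 95% confidence intervals from the limma fit, and filled points passed an adjusted p of 0.05. EDEM1 is filled in both lines, HERPUD1 in MV4-11, and most other intervals lie on the negative side or span 0.

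HSPA5 (211936_at, gene at chr9:125234853-125241343) varied widely between replicates, with an SD of 0.31 to 0.48 in all groups but U937 CHD4 shRNA (0.08). In U937 it had 11.35, 11.20 and 11.28 with CHD4 shRNA, against 11.78, 11.75 and 11.18 with scrambled shRNA. Scrambled replicate 3 was the lowest of the 6, so the groups overlapped. MV4-11 values were 10.99, 11.59 and 10.65 with CHD4 shRNA, against 10.88, 11.28 and 11.49 with scrambled shRNA. The highest and the lowest of these 6 arrays were both CHD4 shRNA arrays. The changes were -0.29 ± 0.23 in U937, with a 95% interval of -0.78 to 0.20, and -0.14 ± 0.23 in MV4-11, with an interval of -0.63 to 0.35 (SE, n = 3 each). Limma adjusted p were 0.589 and 0.789, and the U937 interval reaches as low as the HERPUD1 change in that line.

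HSP90B1 (gene at chr12:103930410-103947926), also called GRP94, is the lumenal Hsp90 chaperone, which folds integrins and Toll-like receptors among others. Probe set 216449_x_at had 10.75, 10.54 and 10.58 in U937 with CHD4 shRNA, against 10.99, 11.05 and 10.79 with scrambled shRNA. The U937 groups did not overlap, by a small gap. In MV4-11 it had 10.59, 10.66 and 10.63 with CHD4 shRNA, against 10.54, 10.40 and 11.01 with scrambled shRNA, and the CHD4 shRNA arrays lay inside the range of the scrambled ones. Its changes were -0.32 ± 0.14 in U937 and -0.02 ± 0.14 in MV4-11 (SE, n = 3 each), with limma adjusted p of 0.252 and 0.947. The other probe set, 216450_x_at, gave -0.24 in U937 and -0.04 in MV4-11 and did not pass either. Both carry the suffix that Affymetrix gives to probe sets whose probes may bind other transcripts.

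XBP1 (200670_at, gene at chr22:28794560-28800569) encodes the transcription factor whose messenger is spliced by IRE1. The probe set gives the total signal, and splicing was not analysed here. The U937 arrays gave 9.94, 9.86 and 9.94 with CHD4 shRNA, against 9.86, 9.79 and 9.85 with scrambled shRNA. These groups met at 9.86. Arrays of MV4-11 read 9.96, 10.16 and 9.66 with CHD4 shRNA, against 9.81, 9.89 and 10.01 with scrambled shRNA, and the groups overlapped widely. The changes were 0.08 with a 95% interval of -0.17 to 0.33 in U937 and 0.02 with an interval of -0.23 to 0.27 in MV4-11, with limma adjusted p of 0.816 and 0.939.

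The lectin chaperones CALR and CANX hold newly made glycoproteins in the ER until they are folded, CALR in the lumen and CANX at the membrane. The brightest CANX probe set, 200068_s_at (gene at chr5:179678656-179731641), had 12.36, 12.29 and 12.33 in U937 with CHD4 shRNA, against 12.53, 12.54 and 12.44 with scrambled shRNA. In MV4-11 it had 12.23, 12.27 and 12.20 with CHD4 shRNA, against 12.47, 12.42 and 12.39 with scrambled shRNA. Every CHD4 shRNA array lay below every scrambled array of its line, and the gaps were small. The changes were -0.18 ± 0.08 and -0.19 ± 0.08 (SE, n = 3 each) in U937 and MV4-11, with limma adjusted p of 0.264 and 0.160. The other CANX probe sets, 208852_s_at and 208853_s_at, gave log2 changes of -0.15 and -0.26 in U937 and of -0.16 and -0.16 in MV4-11, and none passed.

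For CALR (gene at chr19:12938609-12944489), none of the 3 probe sets passed the test in either line. Its probe set 212953_x_at had 10.83, 10.85 and 11.03 in U937 with CHD4 shRNA, against 11.19, 11.16 and 11.13 with scrambled shRNA. These groups did not overlap. For MV4-11 the values were 11.14, 11.20 and 10.80 with CHD4 shRNA, against 11.14, 11.09 and 11.01 with scrambled shRNA, and the CHD4 shRNA arrays lay on both sides. The U937 changes of 200935_at, 212953_x_at and 214315_x_at were -0.35, -0.26 and -0.20, with limma adjusted p between 0.154 and 0.444. The MV4-11 changes of these probe sets were -0.12, -0.03 and 0.01.

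PDIA4 and PDIA6 are protein disulfide isomerases, which form and rearrange disulfide bonds, and PDIA6 also acts on the sensor IRE1. Probe set 211048_s_at of PDIA4 (gene at chr7:149003051-149028505) had 10.75, 10.76 and 10.92 in U937 with CHD4 shRNA, against 11.09, 11.11 and 10.94 with scrambled shRNA. In MV4-11 it had 10.85, 10.85 and 10.88 with CHD4 shRNA, against 11.00, 11.01 and 11.05 with scrambled shRNA. The groups stood apart in both lines, and replicate 3 was where the U937 groups came closest. The changes were -0.24 ± 0.09 and -0.16 ± 0.09 (SE, n = 3 each) in U937 and MV4-11, with limma adjusted p of 0.158 and 0.303. The log2 change of PDIA4 probe set 208658_at was -0.11 in U937 and -0.13 in MV4-11. The 4 probe sets of PDIA6, 207668_x_at, 208638_at, 208639_x_at and 216640_s_at (gene at chr2:10783391-10837712) gave log2 changes between -0.20 and -0.08 in U937, with limma adjusted p of 0.278 to 0.756, and between -0.08 and 0.11 in MV4-11, with limma adjusted p of 0.548 to 0.768. They were among the brightest members, with array values of 12.07 to 13.10.

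Averaging the changes of both lines put 6 arrays behind each group mean and called more members. EDEM1 was higher by 0.66 ± 0.11, HERPUD1 was lower at -0.80 ± 0.14, and DNAJB9 was lower at -0.72 ± 0.16 by 202842_s_at (SE, n = 6 each), with limma adjusted p of 0.00121, 0.00263 and 0.00909. These 3 calls held without each of the 12 arrays in turn. In all, 1 of 20 probe sets was higher (7.27% of all probe sets were) and 5 were lower (8.15% of all). The lower ones included small changes of PDIA4 211048_s_at (-0.20 ± 0.06, adjusted p 0.0419), CANX 200068_s_at (-0.19 ± 0.06, adjusted p 0.0383) and CANX 208853_s_at (-0.21 ± 0.06, adjusted p 0.0384) in the same limma fit. These 3 were fragile. The PDIA4 call was lost in 10 of 12 fits with 1 array left out, all but those without U937 CHD4 shRNA replicate 3 or U937 scrambled replicate 3 (adjusted p up to 0.0967). CANX 200068_s_at was lost in 11 of 12, all but the fit without U937 scrambled replicate 3 (up to 0.0842). CANX 208853_s_at was lost in 9 of 12, all but those without U937 CHD4 shRNA replicate 1 or 3 or MV4-11 CHD4 shRNA replicate 2 (up to 0.0929). With the MV4-11 replicate block, DNAJB9 202843_at (-0.58, adjusted p 0.00749, against 0.0568 without the block) and CALR 200935_at (-0.24, adjusted p 0.0342, against 0.0968) passed as lower too. The DNAJB9 probe set also passed without U937 CHD4 shRNA replicate 1 (0.0464), MV4-11 CHD4 shRNA replicate 3 (0.0304) or MV4-11 scrambled replicate 1 (0.0266), and the CALR one without MV4-11 CHD4 shRNA replicate 2 (0.0475). HSPA5, HSP90B1, XBP1 and PDIA6 did not pass, with average changes of -0.22, between -0.17 and -0.14, 0.05, and between -0.13 and 0.02.

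No member's change differed detectably between MV4-11 and U937. By limma, 0 of 20 probe sets passed the test of the difference, as did 0% of all probe sets. At an unadjusted p under 0.05 the count was 0 of 20, and 979 of 22215 overall. The differences, MV4-11 change minus U937 change, ran from -0.06 to 0.30, and the largest was that of HSP90B1 216449_x_at at 0.30 ± 0.20 (SE). For EDEM1 the difference was 0.10 with a 95% interval of -0.36 to 0.56, and for HERPUD1 it was -0.04 with an interval of -0.67 to 0.58, so differences within these bounds could not be seen.

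Between the scrambled groups, MV4-11 minus U937, EDEM1 was the 1 probe set that passed, as lower (2.08% of all probe sets did), and 0 passed as higher (2.37% of all). At an unadjusted p under 0.05 the count was 4 of 20, and 4173 of 22215 overall. EDEM1 averaged 8.99 ± 0.20 in MV4-11 and 9.80 ± 0.14 in U937 (SD, n = 3 each). The change was -0.81 ± 0.15 (SE) or 0.569 of the U937 level, with a limma adjusted p of 0.00884, which rose to 0.0530 without U937 scrambled replicate 2. MV4-11 cells with CHD4 shRNA averaged 9.70 ± 0.33 (SD, n = 3), close to U937 cells with scrambled shRNA, and U937 cells with CHD4 shRNA were highest at 10.42 ± 0.05 (SD, n = 3). HSP90B1 216450_x_at came next, at -0.49 ± 0.15 (SE) with a limma adjusted p of 0.0991, and it passed without U937 scrambled replicate 3 (0.0470). HERPUD1 and XBP1 were near equal between the lines, with changes of 0.05 and 0.07.

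The spread within a group differed between members. HSPA5 deviated from its group mean by 0.51 in MV4-11 CHD4 shRNA replicate 2 and by -0.43 in replicate 3, and by -0.39 in U937 scrambled replicate 3. HSP90B1 had SDs of only 0.035 and 0.032 by its 2 probe sets in the MV4-11 CHD4 shRNA arrays, against 0.476 for HSPA5. Taken by number, the MV4-11 differences of HSPA5 were 0.11, 0.31 and -0.84 for replicates 1, 2 and 3, which do not share a sign. Those of HERPUD1 were -0.65, -0.63 and -1.17, and those of EDEM1 were 0.68, 0.87 and 0.59. Over the 20 probe sets, the median distance from the U937 scrambled mean was -0.20, -0.30 and -0.15 in the U937 CHD4 shRNA arrays, against 0.03, 0.05 and -0.10 in the scrambled arrays themselves. In MV4-11 the median distances from the scrambled mean were -0.07, -0.10 and -0.22 with CHD4 shRNA, against -0.03, -0.02 and 0.06 with scrambled shRNA.

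The genes whose pattern over the 12 arrays was most like that of HSPA5, by Pearson correlation over all genes, were KLF4 (0.949), ITPR1 (0.899), MANF (0.892), PBOV1 (0.883) and COQ4 (0.861). MANF is a secreted ER stress protein, ITPR1 the calcium release channel of the ER membrane, and KLF4 a transcription factor of monocyte differentiation. PBOV1 was dim, with a mean of 3.64. Within the groups, with group means taken out, KLF4, ITPR1, MANF, PBOV1 and COQ4 correlated with HSPA5 at 0.942, 0.925, 0.925, 0.882 and 0.821. These values are no separate support, because the genes were picked on the same arrays by their correlation with HSPA5. The other member genes correlated with it over all arrays at 0.647 (HSP90B1) down to 0.238 (EDEM1). Within the groups their order was another, with XBP1 highest (0.779), then HERPUD1 (0.651), EDEM1 (0.515) and HSP90B1 (0.498), and PDIA6 lowest (-0.248). All these values share the 12 arrays and describe them only.

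Other genes of the ER were taken from 6 lists, with 110 of 129 listed genes measured and 1 probe set, the one of highest mean, taken for each gene. In U937, 1 was higher (2.29% of all 11963 genes were) and 5 were lower (3.23% of all genes). In MV4-11, 1 was higher (4.39%) and 4 were lower (4.36%). With the MV4-11 replicate block, 11 genes of 110 passed in U937 (8.78% of all genes did) and 18 in MV4-11 (14.8% of all genes). Without U937 CHD4 shRNA replicate 2 or 3 or any U937 scrambled replicate, 1 to 3 passed in U937. In MV4-11, 3 passed without CHD4 shRNA replicate 1 and 17 without CHD4 shRNA replicate 3. The share of all genes called in these fits is not given, so the counts cannot be read as particular to ER genes. The median change over the lists was -0.10 in U937 and -0.03 in MV4-11, against -0.00 and -0.03 over all genes. At an unadjusted p under 0.05, against which the counts of single lists below may be read, stood 2274 of all 11963 genes in U937 (19%) and 2928 in MV4-11 (24.5%). In the average of both lines, 7 were higher (8.34% of all genes) and 16 were lower (9.44%).

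**Figure D4:**
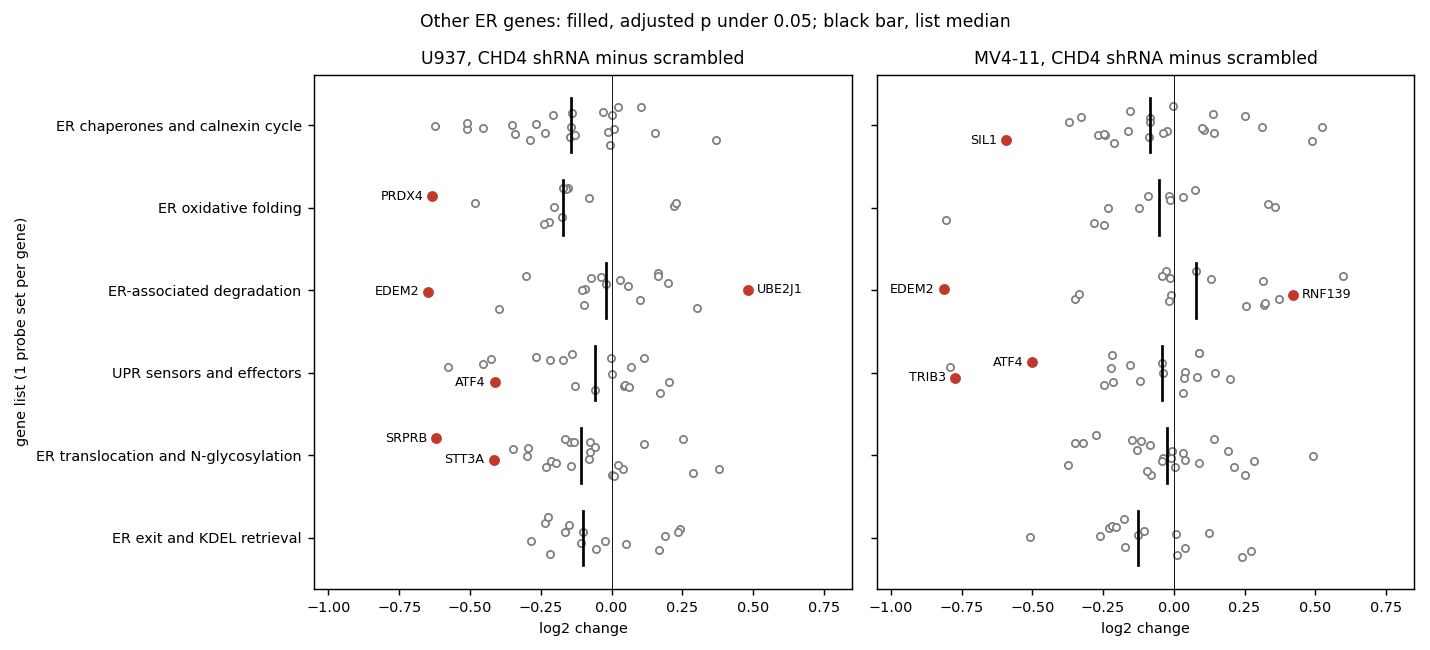
Log2 change, CHD4 shRNA minus scrambled, of 110 other ER genes in 6 lists, in U937 (left) and MV4-11 (right), with 1 point per gene. Filled points passed a limma adjusted p of 0.05 and are named, and black bars are list medians. EDEM2 and ATF4 are filled on the lower side in both lines.

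ER-associated degradation genes passed in both directions. Of 17 measured genes, 1 was higher and 1 lower in each line. At an unadjusted p under 0.05 there were 4 in U937 (1 higher, 3 lower) and 7 in MV4-11 (4 higher, 3 lower). EDEM2, a relative of EDEM1 that starts mannose trimming of misfolded glycoproteins, had 9.17, 8.96 and 9.01 in U937 with CHD4 shRNA, against 9.78, 9.60 and 9.70 with scrambled shRNA. Its MV4-11 values were 9.17, 8.90 and 9.39 with CHD4 shRNA, against 10.15, 9.90 and 9.85 with scrambled shRNA. Neither line showed overlap, and EDEM2 thus fell where EDEM1 rose. EDEM2 fell by 0.65 ± 0.13 in U937 and by 0.81 ± 0.13 in MV4-11 (SE, n = 3 each), with limma adjusted p of 0.0126 and 0.00326. The U937 call was lost without U937 CHD4 shRNA replicate 2 (0.0639) or 3 (0.0503) or scrambled replicate 1 (0.0612), and the MV4-11 call held without each array. UBE2J1, the ubiquitin-conjugating enzyme of the ER membrane, rose in U937 by 0.48 ± 0.11 (SE, n = 3 each), with a limma adjusted p of 0.0206, and all of its other 3 probe sets passed in U937 as well. In MV4-11 the change of 0.31 had an adjusted p of 0.0926, or 0.0396 with the replicate block. Its probe set 217824_at passed in MV4-11 without the block (0.69, adjusted p 0.00377), while 217825_s_at (0.37, 0.0904, or 0.0174 with the block) and 217823_s_at (0.27, 0.169) did not. The U937 call of UBE2J1 was lost without any U937 array but CHD4 shRNA replicate 1 (adjusted p 0.0531 to 0.0869). RNF139, an ER ubiquitin ligase, rose in MV4-11 by 0.42 ± 0.10 (SE, n = 3 each), with a limma adjusted p of 0.0246, and its U937 value was 0.20 (0.345). Its MV4-11 call was lost without CHD4 shRNA replicate 1 (0.0826) or any of the 3 scrambled replicates (0.0594, 0.0614 and 0.0849).

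Among UPR sensors and effectors, 19 of 21 were measured, of which 1 was lower in U937, 2 were lower in MV4-11 and 0 were higher by limma. At an unadjusted p under 0.05 there were 5 of 19 in each line, all lower. Of all genes, 19% in U937 and 24.5% in MV4-11 stood there, in either direction. ATF4, the transcription factor translated when PERK is active, had 12.27, 12.16 and 12.06 in U937 with CHD4 shRNA, against 12.53, 12.52 and 12.68 with scrambled shRNA. In MV4-11 it had 12.15, 12.10 and 12.29 with CHD4 shRNA, against 12.64, 12.67 and 12.73 with scrambled shRNA. The groups were well apart in both lines. ATF4 fell by 0.41 ± 0.09 in U937 and by 0.50 ± 0.09 in MV4-11 (SE, n = 3 each), with limma adjusted p of 0.0233 and 0.00739. The U937 call was lost without CHD4 shRNA replicate 2 or 3 or any scrambled replicate of U937 (adjusted p 0.0529 to 0.0954). TRIB3, a pseudokinase induced by ATF4 and CHOP, had 9.63, 9.73 and 9.94 in MV4-11 with CHD4 shRNA, against 10.38, 10.52 and 10.72 with scrambled shRNA. Here, too, the groups stood apart. TRIB3 fell by 0.77 ± 0.13 in MV4-11 (SE, n = 3 each), with a limma adjusted p of 0.00436, and its U937 change of -0.45 had an adjusted p of 0.0702, or 0.0311 with the MV4-11 block. ATF4 and TRIB3 are also known from the amino acid stress response.

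Of the other ER chaperones, 23 of 24 were measured. At an unadjusted p under 0.05 there were 6 in U937 (0 higher, 6 lower) and 7 in MV4-11 (3 higher, 4 lower). By limma adjusted p, 0 passed in U937 and 1, as lower, in MV4-11. That gene was SIL1, the nucleotide exchange factor of HSPA5, which fell by 0.59 ± 0.13 (SE, n = 3 each) in MV4-11, with a limma adjusted p of 0.0173, against -0.45 in U937 (0.0748, or 0.0417 with the MV4-11 block). The MV4-11 call of SIL1 was lost without CHD4 shRNA replicate 1 (0.0689) or 2 (0.0681) or scrambled replicate 3 (0.0721). HYOU1, another exchange factor of HSPA5, had log2 changes of -0.35 in U937 (0.0602, or 0.0402 with the block) and -0.24 in MV4-11 (0.152). CRELD2, an ER stress-induced isomerase, had -0.01 in U937, with a limma adjusted p of 0.992, and 0.52 in MV4-11, with 0.0738, or 0.0203 with the block.

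Oxidative folding genes were measured for 12 of 16, and 1 was lower in U937 and 0 passed in MV4-11 by limma. At an unadjusted p under 0.05 there were 2 in U937 (0 higher, 2 lower) and 4 in MV4-11 (2 higher, 2 lower). PRDX4, the ER peroxiredoxin that passes peroxide oxidation to disulfide isomerases, had 12.08, 11.94 and 11.93 in U937 with CHD4 shRNA, against 12.65, 12.60 and 12.60 with scrambled shRNA. The groups lay far apart for so bright a probe set. PRDX4 fell by 0.63 ± 0.11 in U937 (SE, n = 3 each), with a limma adjusted p of 0.00520, and this call held without each array in turn. In MV4-11 its change was -0.28 (0.128). QSOX1, a sulfhydryl oxidase, had log2 changes of 0.23 in U937 and 0.36 in MV4-11, neither past the threshold. The transmembrane oxidoreductases TMX1 and TMX4 had 0.22 and -0.22 in U937 and 0.33 and -0.01 in MV4-11, also not past it. Of the 2 other probe sets of TMX4, the dim 216027_at (mean 4.80) was higher in MV4-11 by 0.65 with a limma adjusted p of 0.0415, and the bright 201580_s_at (mean 10.25) had 0.02 (0.967).

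Translocation and N-glycosylation genes were measured for 24 of 28, with 2 lower in U937 and 0 past the threshold in MV4-11 by limma. At an unadjusted p under 0.05 there were 11 in U937 (3 higher, 8 lower) and 8 in MV4-11 (4 higher, 4 lower). SRPRB, which anchors the signal recognition particle receptor, fell by 0.62 ± 0.15 and STT3A, a catalytic subunit of oligosaccharyltransferase, by 0.42 ± 0.10 in U937 (SE, n = 3 each), with limma adjusted p of 0.0315 and 0.0354. Both calls were lost without any 1 of the 6 U937 arrays, at adjusted p of 0.0512 to 0.129 for SRPRB and 0.0677 to 0.125 for STT3A. In MV4-11 their log2 changes were -0.37 and -0.32 (0.150 and 0.0761), and both passed with the replicate block (0.0403 and 0.0217). TRAM2, a translocon-associated protein, had log2 changes of 0.38 in U937 and 0.49 in MV4-11 (0.0641, or 0.0433 with the block). Of the ER exit and retrieval genes, 15 of 17 were measured and 0 passed in either line by limma. At an unadjusted p under 0.05 there were 2 in U937 (0 higher, 2 lower) and 2 in MV4-11 (1 higher, 1 lower). TMED2, KDELR1 and SEC24C had log2 changes of -0.22, -0.28 and -0.16 in U937 and -0.11, -0.23 and -0.20 in MV4-11. SEC22B, a SNARE of ER to Golgi transport, had log2 changes of 0.17 in U937 and 0.27 in MV4-11 (0.0621, or 0.0484 with the block).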

How the data were processed

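Total RNA of 12 cultures was labelled and hybridised to Affymetrix arrays. The authors deposited log2 values, rounded to 2 decimals, in a single table. RMA is the tool named, per the submitters' processing notes, without a version or the set of arrays it was run on. Values from 2.54 to 15.11 show the scale to be log2. RMA equalises the distribution of values between arrays, so a change shared by most genes cannot be seen, and background compresses the changes of dim probe sets. The number of arrays limits the precision.

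Of 22277 probe sets, 62 controls were left out. The platform annotation gave 1 symbol to 19064 of the other 22215, several to 1043, and did not list 2108. Members were matched to promoter windows and gene positions of RefSeq (GRCh38.p14) for all 10 genes.

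One limma model (limma 3.58.1, R 4.3.3) of the 4 groups was fitted to all 12 arrays and 22215 probe sets, with lmFit and eBayes, 8 residual and 4.86 prior degrees of freedom, and Benjamini-Hochberg adjustment over all probe sets. Every adjusted p given comes from limma. An exact permutation test of 3 arrays against 3 cannot give a p below 0.1 and was not used. The series design text calls the triplicates biological. Of the steps, only the limma comparison in U937 was tested on simulated data, with noise drawn independently for each array. The other comparisons, the block fits and the promoter search were not tested in this way.

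Every member gene is named. Outside the members, the rule names CHD4, the 2 genes with the lowest p per list and line, and the 5 genes most like HSPA5. The other probe sets of TMX4 and UBE2J1, the marker genes and the genes in the closing observations were named after their values were seen. Members and lists were chosen with earlier results of these data known.

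Same-numbered arrays deviated together in MV4-11 (correlations 0.43, 0.47 and 0.49 over probe sets), so the numbers of the titles were taken to pair these arrays. In U937 the correlations were 0.01, 0.34 and 0.36, and the numbers were not taken as pairs. What a number stands for is not stated. The fit with a replicate block in MV4-11 is quoted where it changes a call, and for EDEM1 and HERPUD1 in MV4-11. In U937 this block leaves every change as it was. It acts on the U937 p through the estimate of the spread that all groups share, so it adds no evidence from U937 arrays. Every U937 p of this fit may be too small, because the U937 replicates themselves are not blocked. Alternatives were the dimmest 25% of probe sets left out, quantile normalization, median centring, eBayes with trend and robust fitting, genes in place of probe sets, fits of the compared groups alone, replicate blocks, and each array left out.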

Additional observations from a re-analysis of the deposited data

How the results depend on the processing

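The counts of called member genes were small and moved with the fit. In U937, 1 gene passed, and 2 passed without the dimmest 25% of probe sets, with median centring, with eBayes trend and robust fitting, with 1 probe set per gene or after averaging each gene's probe sets, and 3 when U937 was fitted alone. In MV4-11, 2 genes passed, and 0 when MV4-11 was fitted alone. With 1 array left out the counts ran from 0 to 3 in U937, 0 to 2 in MV4-11, 3 to 5 in the average, 0 to 2 between scrambled groups and 0 to 0 for the difference. The other ER genes that passed numbered 6 in U937 and 5 in MV4-11, or 1 to 8 and 3 to 17 with 1 array left out. Over all probe sets of those lists, 10 passed in MV4-11. Of all probe sets, 3.88% passed as higher and 3.59% as lower there. In the order chaperones, oxidative folding, degradation, UPR, translocation and exit, the lists held 33, 20, 32, 33, 41 and 29 probe sets. In U937, 0, 0, 4, 0, 0 and 0 of these passed as higher and 0, 1, 1, 2, 2 and 0 as lower. The share of all genes called also moved between fits. Without a block it was 5.53% in U937 and 8.75% in MV4-11. With a replicate block within each line it was 11.4% and 18.6%. A count moved by a block is therefore not particular to the members or the lists, and the cause was not tested. For fits with 1 array left out the share of all genes is not given, so those counts have no such comparison.

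The replicate block of the paired MV4-11 arrays raised the members called in U937 to 3 and the other ER genes called to 11 in U937 (8.78% of all genes) and 18 in MV4-11 (14.8%). A block within each line, which also treats U937 numbers as pairs, gave 3 members in U937, 2 between the scrambled groups, and 13 and 25 other ER genes (11.4% and 18.6% of all genes). A block shared by both lines left 1 member in MV4-11. Beside the calls given with their results, the MV4-11 block changed no other call of the members or of the list genes named by the rule.

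Signs turned for small changes. CRELD2 in U937 was 0.018 with quantile normalization and CALR 214315_x_at in MV4-11 was -0.0033 with median centring. With 1 array left out, MV4-11 changes ran from -0.40 to 0.073 for HSPA5, -0.15 to 0.16 for HSP90B1 216449_x_at, -0.13 to 0.098 for 216450_x_at, -0.093 to 0.16 for XBP1, -0.22 to 0.022, -0.11 to 0.090 and -0.092 to 0.15 for CALR 200935_at, 212953_x_at and 214315_x_at, and -0.088 to 0.057 for TMX4. CRELD2 in U937 ran from -0.13 to 0.063, the averages of XBP1 and PDIA6 208638_at from -0.0067 to 0.12 and -0.010 to 0.050, and the scrambled differences of DNAJB9 202842_s_at, HERPUD1 and PDIA4 211048_s_at from -0.21 to 0.22, -0.17 to 0.25 and -0.080 to 0.0050.

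Further calls appeared with 1 array left out. They were TRIB3 (without U937 CHD4 shRNA replicate 1), SIL1 (U937 scrambled replicate 3) and HYOU1 (MV4-11 CHD4 shRNA replicate 2 or 3) in U937. In MV4-11 they were QSOX1 (U937 or MV4-11 CHD4 shRNA replicate 3), SRPRB (MV4-11 CHD4 shRNA replicate 2), CRELD2, TMX1 and TRAM2 (MV4-11 CHD4 shRNA replicate 3) and PRDX4 (MV4-11 scrambled replicate 3), with adjusted p from 0.00611 to just under 0.05. The STT3A call in U937 was lost with quantile normalization (0.0566).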

Other observations

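ERSE or ERSE-II occurred in a promoter window of 21 measured genes outside the members, many of them not ER genes. In U937, 0 of these were higher (2.27% of the 9563 genes with a window were) and 1 was lower (3.43%) by limma with an adjusted p under 0.05. In MV4-11, 0 were higher (4.48%) and 2 were lower (4.61%). Their median changes were -0.01 in U937 and -0.03 in MV4-11, against -0.00 and -0.02 over all genes with a window. In the average of both lines, 1 was higher (8.73%) and 5 were lower (9.91%), among them HYOU1 (-0.30, adjusted p 0.0104), SERP1, which shields nascent membrane proteins (adjusted p 0.00406), and NAV2 (adjusted p 0.000513). Whether the element and the change are related was not tested.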
